A study of Diospyros lotus with 24 samples.

Results

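The bud mRNA of 2 parent trees of Diospyros lotus was set against that of 17 of their progeny. The parents were a female tree, the mother, and a male tree, the father, of the cultivar Kunsenshi. The progeny were 9 daughters and 8 usable sons of their cross, the KK population of 57 trees. These 19 libraries were all usable members of the 20 bud mRNA libraries, out of 24 samples in the series. A further son was left out because its library was almost empty. All trees are labelled with the same cultivar and the same tissue, mixed buds at the early differentiation of flower primordia, and no treatment is named. All were planted at 1 site, and each library came from 1 tree. Buds were taken on June 17 and July 4 of 2013, and the labels do not tie a date to a library. No age of a tree is stated in the labels. With 1 mother and 1 father, the generation of a tree cannot be told apart from tree age, date or handling, where these differed between parents and progeny. The p-values measure the spread between trees, which was estimated mainly from the progeny. For the mother or the father tested alone it came from the progeny only, and the parents are assumed to vary like the progeny.

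In a dioecious plant, male and female flowers are borne on separate trees. In D. lotus, sex is set by OGI, a small RNA gene on the Y chromosome of males, which represses the autosomal homeobox gene MeGI. Progeny of a cross inherit a mixture of the alleles of both parents, and where alleles act additively the average level of a transcript over progeny is the mean of its parents. The deposited contigs, stretches of transcript assembled without a genome, carry no gene names, and 0 of their IDs matched a table of 27971 reference genes. OGI, MeGI, gene roles and marker genes of bud tissue could therefore not be looked up, and contigs are described by length, level and small RNA.

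The authors deposited read counts for 417827 contigs of 200 to 21792 bases (median 311). Library totals were 6925001 counts in the mother and 6840388 in the father, against 3527282 to 15314430 in the progeny, so the parents lay inside the range of depth. No 2 libraries agreed within sampling noise. The closest pair, sons 7 and 9, had a mean chi-square of 3.27 per contig, where counting error alone gives about 1. Tests used the 89128 contigs (21.3%) with enough counts, which held 94.1% of the counts of the mother, 95.1% of those of the father and up to 97.3% in a progeny library. Levels are given as CPM, counts brought to the same library total in every library with TMM factors, and differences are log2 differences of parents minus progeny with sex in the model.

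The parents differed from their progeny at 25060 of the 89128 contigs tested, which is 28.1% (edgeR's quasi-likelihood test, Benjamini-Hochberg adjusted p under 0.05). Of these, 13401 contigs (15% of those tested) were higher in the parents and 11659 (13.1%) were lower. At an unadjusted p under 0.05 there were 34665 contigs, where the threshold alone would give 4456.4. In whole buds, fewer cells of a type and less RNA per cell cannot be told apart. Which direction held more calls depended on the scaling: the higher share of the calls was 53.5% with TMM factors, 60.2% with RLE factors and 46.7% with library totals alone. The scaling also moved the median log2 difference over all contigs tested, which was -0.03, 0.05 and -0.10 in the same order. The count itself rested on having both parents, since it was 9053 without the mother and 9506 without the father.

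Among called contigs, those higher in the parents differed by more than those lower. The increases had a lower median level (3.78 CPM against 11.4 CPM) and a wider spread among progeny (median SD of log2 CPM 0.498 against 0.295). Smaller differences can be called where the spread is narrow, and the part that this plays in the sizes was not tested. The median log2 difference was 1.59 among the higher contigs and -1.08 among the lower ones. Of the higher contigs, 2462 (18.4%) differed by less than 1 on the log2 scale, 6992 (52.2%) by 1 to 2, 3888 (29.0%) by 2 to 4 and 59 (0.440%) by more than 4. Of the lower contigs, 5168 (44.3%) differed by less than 1, 5067 (43.5%) by 1 to 2, 1272 (10.9%) by 2 to 4 and 152 (1.30%) by more than 4. Small changes thus made up a larger share of the decreases than of the increases, and with RLE factors or library totals the medians were 1.59 or 1.61 and -1.06 or -1.09. Of the lower contigs, 115 had 0 counts in both parents, and their fitted sizes depend on the prior count that the fit adds. Their part in the 152 decreases beyond 4 was not tested, so that number is not set against the 59 increases. When each contig was tested against a fold of 2 instead of against no change, 3166 contigs (3.55%) passed, 2316 of them higher (2.60%) and 850 lower in the parents (0.954%).

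**Figure D1:**
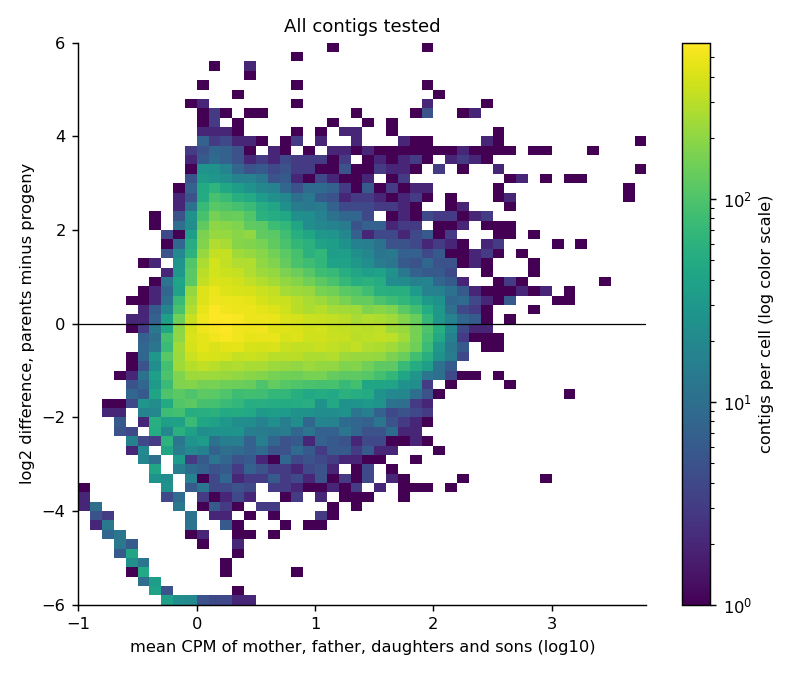
Each contig tested is placed by its mean CPM (log10 axis, mother, father, daughters and sons weighted equally) and by its log2 difference of parents minus progeny. Color gives the number of contigs per cell on a log scale, and differences beyond 6 either way are drawn in the edge cells. The median is -0.03 over the 89128 contigs, and the cloud is widest at low levels. By level the median is -0.63 under 1 CPM, where the filter on low counts acts, and 0.16 at 1 to 10 CPM. It is -0.20 at 10 to 100 CPM and 0.14 over 100 CPM.

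Among contigs changed with both parents outside the range of the progeny, 2 in each direction are named: the one of smallest p and the one of highest level. Contig315448DeNovoAssembly, of 883 bases, had the smallest p among the increases. It stood at 310.7 CPM in the mother and 308.0 CPM in the father, against 7.07 to 15.7 CPM in daughters (median 11.2) and 11.6 to 19.7 CPM in sons (median 15.8). The parental values were almost equal and far above every progeny tree. Its log2 difference was 4.53 ± 0.15 (SE; edgeR adjusted p = 9.98e-17).

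Contig258875DeNovoAssembly, a short contig of 276 bases, was the most counted contig of the parents. It reached 9820 CPM in the mother and 10564 CPM in the father, against 632 to 1799 CPM in daughters (median 1088) and 467 to 1302 CPM in sons (median 773). The groups did not overlap, and the log2 difference was 3.36 ± 0.33 (SE; edgeR adjusted p = 2.73e-06). The same contig held 40798 small RNA counts in buds of the mother and 53116 in buds of the father. Small RNA was counted in the parents alone, so no progeny value stands beside these.

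The decrease of smallest p was in Contig106915DeNovoAssembly, of 3575 bases. Its level was 5.52 CPM in the mother and 6.50 CPM in the father, against 32.4 to 64.4 CPM in daughters (median 49.6) and 40.6 to 55.2 CPM in sons (median 47.7). Daughters and sons overlapped fully, and both parents lay below all of them. The log2 difference was -3.02 ± 0.23 (SE; edgeR adjusted p = 7.55e-10).

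Contig299042DeNovoAssembly, of 2219 bases, was the most counted contig of the progeny. It stood at 573 CPM in the mother and 846 CPM in the father, against 1571 to 2982 CPM in daughters (median 2150) and 1512 to 2649 CPM in sons (median 2185). It ranked first in the progeny and was still lower in both parents, with a log2 difference of -1.59 ± 0.22 (SE; edgeR adjusted p = 2.62e-05). Per kilobase this was 258 CPM in the mother and 381 CPM in the father, against a median of 969 CPM in the progeny.

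**Figure D2:**
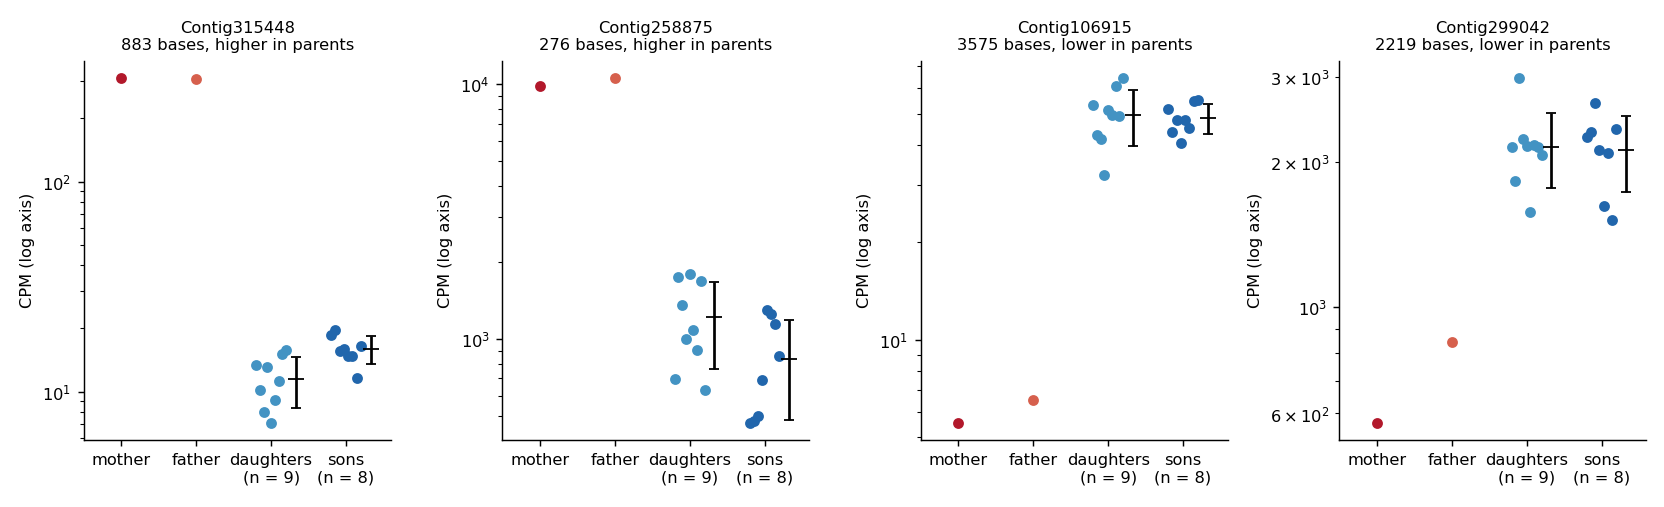
CPM (log axis) of the 4 named contigs in each library, with the mother and the father left of the daughters (n = 9) and sons (n = 8); points are trees and the black marks are means ± SD. In each panel both parents lie outside the range of all 17 progeny, above it in the first pair of contigs and below it in the second.

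Called increases and decreases lay at different levels of expression. The level of a contig, here and in the classes by CPM, includes the parents' own values. A contig with counts in the 2 parents alone could also pass the filter. The part that these play in the balance between classes was not tested. On the scale of CPM per kilobase, contigs that were higher in the parents had a median level of 2.20 and those that were lower a median of 12.3, against 3.92 over all contigs tested. Among the 26842 contigs at 1 to 3 CPM per kilobase, 23.5% were higher and 4.74% lower in the parents. Among the 17342 contigs at 10 to 30 CPM per kilobase the balance was the other way, with 9.53% higher and 26.4% lower. This contrast between the 2 classes held its direction with RLE factors, library totals alone and totals without the 100 contigs most counted in the parents. At 3 to 10 CPM per kilobase the balance depended on the scaling, with 10.3% higher and 13% lower under TMM factors, and 11.7% higher and 11% lower under RLE factors.

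On the scale of CPM, without division by length, the order was not a simple trend. Of 57930 contigs at 1 to 10 CPM, 17.8% were higher and 8.33% lower in the parents. At 10 to 100 CPM, decreases prevailed, at 28.3% of 21620 contigs, against 13.1% that were higher. The 654 contigs over 100 CPM leaned to increases again, with 32.9% higher and 20.3% lower. Below 1 CPM the filter on low counts limits which contigs could be called, so that class is not read here. The median SD of log2 CPM over the 17 progeny was 0.295 for the decreases, against 0.498 for the increases and 0.453 for all contigs tested. The test uses this spread, and the decreases were also at a higher level, with a median of 11.4 CPM against 3.26 CPM for all contigs tested, so this is a description of what was called.

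Over all levels together, longer contigs were more often higher in the parents. The share called higher was 7.82% under 500 bases, 10.8% from 500 to under 1000, 16.9% from 1000 to under 2000, 24.3% from 2000 to under 4000 and 34.7% at 4000 bases or more. The share called lower stayed between 10.4% and 14.3% in these classes. The median log2 difference over all contigs of a class moved from -0.24 in the shortest to 0.35 in the longest. For the longest class it was 0.40 in the mother alone and 0.30 in the father alone. The order of the classes was the same with RLE factors and library totals, while the balance from 500 to under 1000 bases changed sides between scalings. The median length was 1576 bases for contigs higher in the parents and 1002 bases for contigs lower in them, against 1012 bases for all contigs tested.

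The trend with length was steepest among contigs of low level. At 1 to 3 CPM per kilobase, 1.1% of contigs under 500 bases were higher in the parents, against 45.2% of contigs of 4000 bases or more. At 10 to 30 CPM per kilobase the share was between 7.45% and 14.1% in all 5 length classes. On the scale of CPM the trend did not hold at higher levels. At 10 to 100 CPM the share higher was 15.5% under 500 bases, 8.93% from 1000 to under 2000 bases and 33.1% at 4000 bases or more. Over 100 CPM it was 48.3% under 500 bases, 20.9% from 2000 to under 4000 bases and 31.2% at 4000 bases or more, in classes of 36 to 201 contigs. A short contig at a low level has few counts, and fewer differences can be called there. The median log2 difference needs no call, and at 1 to 3 CPM per kilobase it was -0.70 in the shortest class and 0.67 in the longest. The part that the filter on low counts plays in these medians was not tested.

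**Figure D3:**
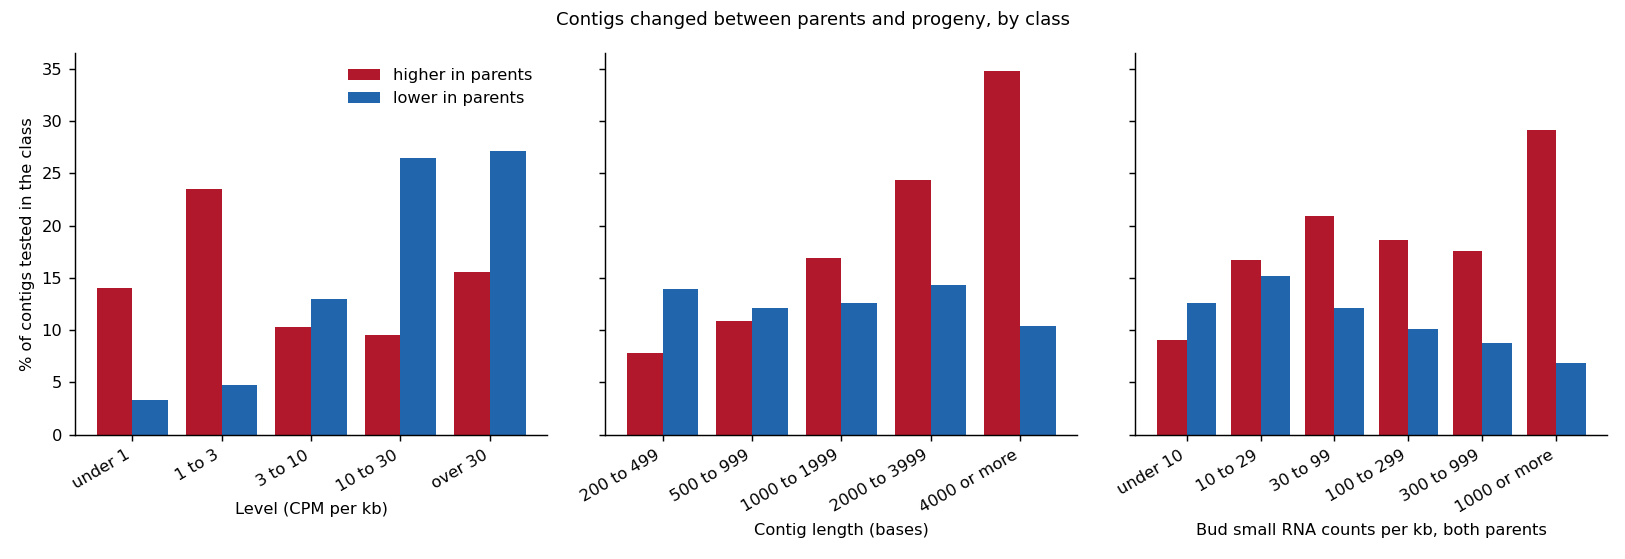
Percent of contigs tested that were higher (red) or lower (blue) in the parents than in the progeny, by level in CPM per kilobase, by contig length in bases and by bud small RNA counts per kilobase over both parents. The red bars grow with length, to 34.7% at 4000 bases or more, and the blue bars exceed the red ones from 3 CPM per kilobase upward, except that with RLE factors the class of 3 to 10 has the opposite order.

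Contigs with the most small RNA were more often higher in the parents than those with the least, with no steady trend between. Among 31781 contigs with under 10 small RNA counts per kilobase over both parents, 9.09% were higher and 12.6% lower. Among 1586 contigs with 1000 or more per kilobase, 29.1% were higher and 6.81% lower, and their median log2 difference was 0.37. Between these classes the share higher was 16.7% at 10 to under 30 per kilobase, 20.9% at 30 to under 100, 18.6% at 100 to under 300 and 17.5% at 300 to under 1000. The order of the 2 end classes was the same with RLE factors, where 10.6% and 31.1% were higher, and with library totals, where 7.64% and 27.1% were. At least 10 small RNA counts were found on 82.8% of contigs higher in the parents and on 64.1% of those lower in them, against 62.9% of all contigs tested. The small RNA comes from the same 2 trees as the parental mRNA, and a contig's length also raises its chance of reaching 10 counts. The 1000 contigs of most small RNA per kilobase (at least 6901 counts per kilobase, median length 291.5 bases) are called small RNA-dense below. Of these, 370 passed the filter, with 169 higher (45.7%, against 15% of all contigs tested) and 8 lower (2.16%, against 13.1%) in the parents and a median log2 difference of 0.84.

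The mother and the father departed from the progeny in the same direction at most contigs. Set against the daughters, the mother differed at 10264 contigs (11.5%), 5531 higher (6.21%) and 4733 lower (5.31%). Set against the sons, the father differed at 9797 contigs (11%), 5031 higher (5.64%) and 4766 lower (5.35%). These comparisons share no library, although both sets of progeny have the same parents and all 4 groups share 1 estimate of the spread. Of the mother's contigs, 98.3% had the same sign in the father and 53.7% were called there too. Of the father's contigs, 98.5% had the same sign in the mother and 56.3% were called there too. The 5513 contigs called in both comparisons comprised 2992 higher and 2521 lower, and 0 were called in opposite directions.

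The size of the departure was less alike than its sign. Contigs called in the mother had a median size of 1.71 on the log2 scale there and 1.30 in the father. Contigs called in the father had a median size of 1.68 there and 1.31 in the mother. In each case the parent in which the contigs were chosen showed the larger value. Across all 89128 contigs, Pearson's r between the log2 differences was 0.551 and Spearman's rho 0.655, given as a description because contigs are not independent. Over the 22274 contigs at 10 CPM or more r was 0.761, and the share with the same sign was 82.8%, against 76.1% of all contigs. A direct test of the difference between the departures, mother minus daughters against father minus sons, called 0 contigs in edgeR (2885 at an unadjusted p under 0.05). The threshold alone would give 4456.4 contigs at that unadjusted p, so there was no excess over it. With 1 tree on each side of that test, the lack of calls does not show that the 2 departures were equal.

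**Figure D4:**
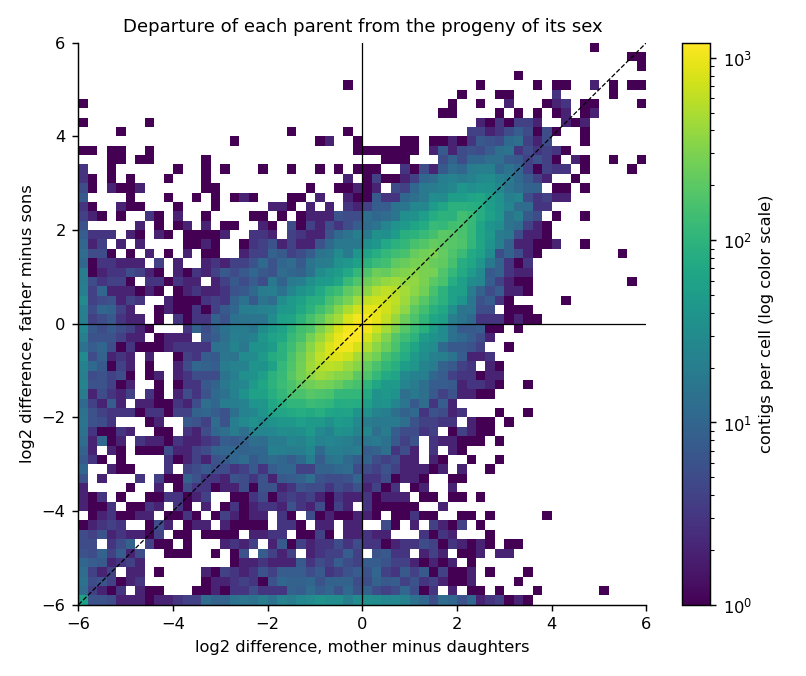
Each contig tested is placed by its log2 difference of mother minus daughters and of father minus sons, with the number of contigs per cell as color on a log scale; values beyond 6 either way are drawn in the edge cells and the dashed line marks equal values. The cloud stretches along the dashed line (Pearson's r 0.551), and 76.1% of contigs have the same sign on both axes.

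At many contigs both parents lay outside the whole range of their progeny. Both were above all 17 progeny at 11874 contigs (13.3% of those tested) and below all of them at 9087 (10.2%), while 165 contigs had 1 parent above and the other below. Of the contigs called higher, 79.5% had both parents above all progeny, and of those called lower, 73.0% had both below. These shares use the same values as the test and describe its calls.

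Presence in a single generation was rare under a rule that asked for counts in every library of it. That meant 2 libraries for the parents and 17 for the progeny, so the 2 directions are not comparable. With at least 10 counts in every library of a generation and 0 in the other, there were 0 contigs in either direction. With at least 3 counts, 48 contigs were counted in both parents and in 0 progeny. All 48 had between 3 and 8 counts per parent and were 207 to 555 bases long, so they were near the floor of detection. In the reverse direction, 12 contigs of 224 to 2876 bases had at least 3 counts in each of the 17 progeny and 0 in both parents. For the one of highest CPM, of 1447 bases, the progeny held 3 to 131 counts, at 6.28 ± 5.46 CPM (SD, n = 17). In this paragraph CPM is by library totals, without TMM factors. Against the limit that a count of 0 allows, 3 counts over both parents or 0.218 CPM, it was at least 28.8-fold lower in the parents. A contig of 2876 bases was at least 17.8-fold lower, and it held 512 small RNA counts in the mother and 571 in the father. Small RNA was therefore counted on this contig in the 2 trees whose mRNA libraries had 0 counts on it. Of the 12 contigs, 3 had at least 100 small RNA counts over both parents.

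The 10 largest fitted increases were in contigs with progeny medians of 0 to 4.36 CPM. A contig of 1013 bases stood at 208 CPM in the mother and 173 CPM in the father, against 0 to 16.3 CPM in the progeny (median 1.89). It had the largest fitted log2 difference among the increases, 5.88 ± 0.68 (SE; edgeR adjusted p = 1.20e-05). One of 3098 bases stood at 193 CPM in the mother and 135 CPM in the father, against 2.26 to 7.90 CPM in the progeny (median 4.36), with a log2 difference of 5.16 ± 0.20 (SE; edgeR adjusted p = 3.01e-15). Its 17 progeny values spanned a narrow range, so this was a gap between generations and not a wide spread among progeny. The 10 largest fitted decreases all had 0 counts in both parents, so their fitted sizes depend on the prior count and are not given. In all, 115 of the contigs called lower had 0 counts in both parents, and with these at their bound the median was also -1.08, which so few extreme values could hardly move. No contig called higher had 0 counts in all progeny.

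The parental transcriptome was more concentrated at its top. The 10 most counted contigs of each library took 4.48% of the counts in the mother and 5.78% in the father, against 1.04% to 1.96% in daughters and 0.952% to 1.42% in sons. The difference, averaged over the sexes, was 3.83 percentage points (two-sided exact permutation of the parent label within each sex, p = 0.0111, the smallest the 90 arrangements can give; adjusted p = 0.0370 over 5 library measures). The 100 most counted contigs took 9.33% in the mother and 11.7% in the father, against 3.28% to 5.60% in progeny. For the 1000 most counted the shares were 20.1% in the mother and 22.6% in the father, against 13.7% to 16.6% in progeny. Most of the gap in the 1000 was thus already present in the first 100.

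The contigs at the top were mostly short in both generations, and largely the same in the mother and the father. The 10 most counted of the progeny had a median length of 258 bases, against 311 over all contigs. Of the 10 most counted in each parent, 8 were shared by mother and father. Of the 10 most counted over both parents, 9 were shorter than 600 bases (median 290.5) and 9 were called higher. The choice by parental level favours such calls. Among the 10 most counted of the progeny, 6 were called higher in the parents and 2 lower. Over all contigs tested the shares were 15% and 13.1%. The 10 most counted over both parents took 4.46% of the mother's counts and 5.76% of the father's, against 0.471% to 1.34% in progeny. Only 5 of them were among the 10 most counted of the progeny. The exception was a contig of 263 bases, at 3127 CPM in the mother and 3898 CPM in the father, against 1039 to 3553 CPM in progeny, which did not pass the test (edgeR adjusted p = 0.0592). It carried 51881 small RNA counts in the mother and 69327 in the father.

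Among these 10, the values of the mother and the father were farthest apart by ratio in 2 contigs, of 362 and 322 bases, singled out after their values were seen. The first stood at 1480 CPM in the mother and 4469 CPM in the father, against 133 to 765 CPM in progeny. The second stood at 1387 CPM in the mother and 4208 CPM in the father, against 125 to 691 CPM in progeny. Both parents were above all progeny for each, and the difference between their departures did not pass the test (unadjusted p = 0.186 and 0.169 in edgeR's fit of 4 groups, adjusted p = 1.00 for each). One of the most counted contigs of the progeny, of 233 bases, went the other way. It stood at 129 CPM in the mother and 158 CPM in the father, against 499.3 to 3311 CPM in progeny, a log2 difference of -3.40 ± 0.70 (SE; edgeR adjusted p = 0.00193), and held 3 small RNA counts in the mother and 0 in the father. The 1000 contigs of most small RNA counts, ranked without division by length, are another set than the small RNA-dense ones. Among the 100 most counted contigs, 62 of the parents' and 31 of the progeny's belonged to that set, and 48 contigs were on both lists.

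**Figure D5:**
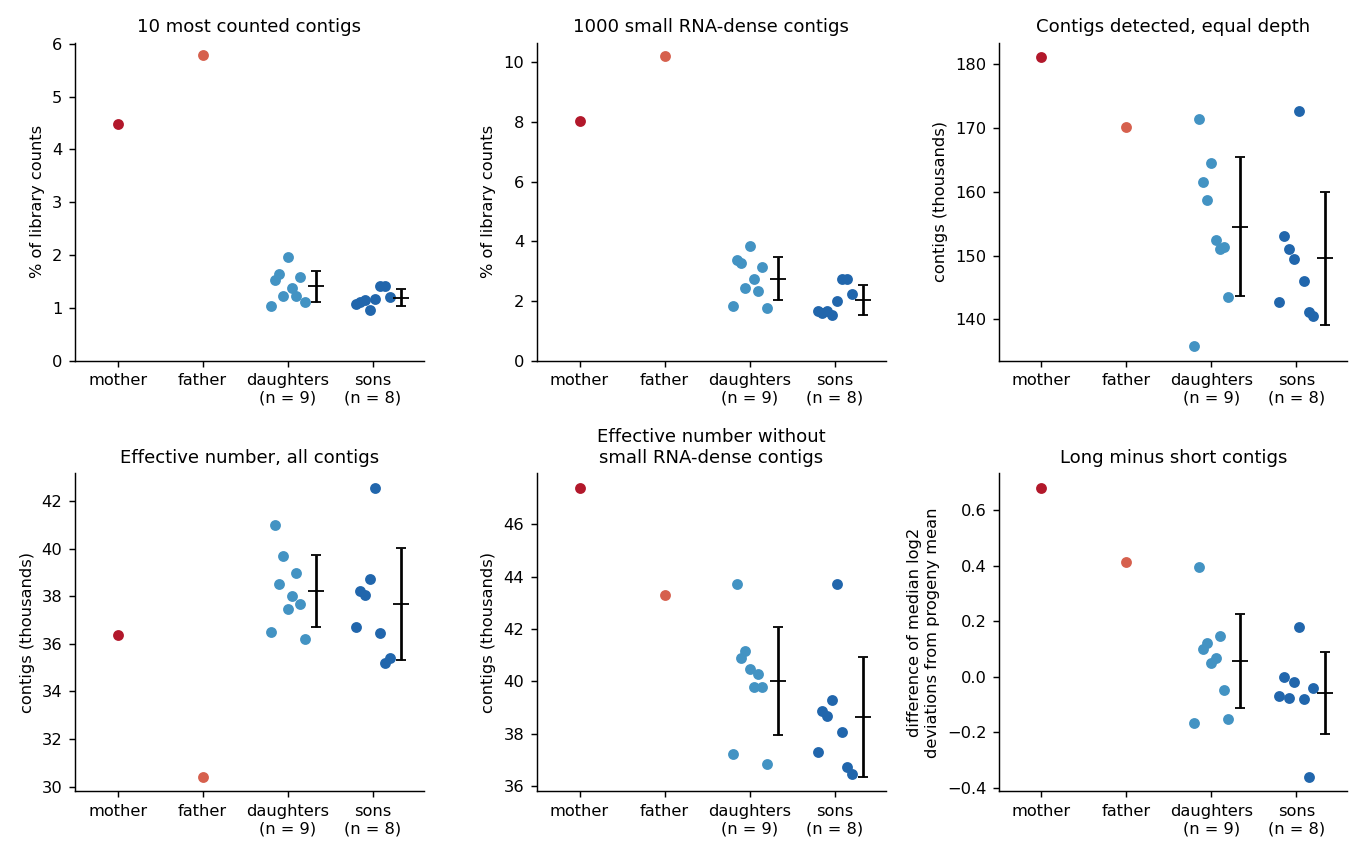
Library measures in the mother, the father, the daughters (n = 9) and the sons (n = 8), with means ± SD of the progeny as black marks: percent of counts on the 10 most counted contigs and on the 1000 small RNA-dense contigs, contigs detected at equal depth, effective number of contigs with and without the small RNA-dense ones, and the length tilt. Both parents lie above all progeny in the 2 shares and in the length tilt, and the effective number is low in the father with all contigs, while without the small RNA-dense ones the mother is above all progeny and the father just below the highest of them.

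Small RNA-dense contigs took a larger share of the mRNA counts in the parents. They took 8.01% of the mRNA counts in the mother and 10.2% in the father, against 1.76% to 3.84% in daughters and 1.54% to 2.75% in sons. The difference was 6.73 percentage points. These contigs were chosen by small RNA counted in the parents alone, after the data were seen, so this and the values without them are descriptions with no test. Without these contigs, the 10 most counted took 1.18% in the mother and 1.54% in the father, against 0.790% to 1.31% in progeny. The mother then lay inside the progeny range and the father above it, with a difference of 0.396 percentage points.

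The sign of the difference in evenness depended on these contigs. The effective number of contigs is 2 to the power of the Shannon entropy in bits, the number of equally counted contigs that would give the same entropy. It was 36366 in the mother and 30408 in the father, against 35199 to 42550 in progeny, a log2 difference of -0.19 (two-sided exact permutation, p = 0.0222; adjusted p = 0.0370). The mother lay within the range of the progeny and the father below it, and the log2 difference was -0.071 without the father and -0.31 without the mother. Without the small RNA-dense contigs it was 47394 in the mother and 43306 in the father, against 36486 to 43731 in progeny, a log2 difference of 0.21. There the mother lay above all progeny and the father just below the highest of them. The number of contigs that held 50% of the counts was 7526 in the mother and 6645 in the father, against 6991 to 8069 in progeny, and its difference did not pass the test (two-sided exact permutation, p = 0.133).

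More contigs were detected in the parents at equal depth. With every library thinned to 3527282 counts, 181135 contigs had at least 1 count in the mother and 170228 in the father, against 135804 to 171449 in daughters and 140502 to 172638 in sons. The mother exceeded all progeny, and the father was within the range of the highest. The difference was 23626 contigs (two-sided exact permutation, p = 0.0222; adjusted p = 0.0370). Without thinning, it was 27551 contigs (two-sided exact permutation, p = 0.167) and the deepest son had the most, at 259335.

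How the parental counts fell on long contigs depended on the length limit. Contigs of 2000 bases or more took 34.3% of the counts in the mother and 31.8% in the father, against 32.7% to 36.8% in progeny, a difference of -1.99 percentage points (two-sided exact permutation, p = 0.0333; adjusted p = 0.0417). This difference was -0.65 without the father and -3.33 without the mother. At 1000 bases or more the share was 61.0% in the mother and 58.2% in the father, below all progeny at 61.6% to 64.8%. That difference was -4.20 percentage points, and -1.20 without the 100 contigs most counted over all libraries. At 4000 bases or more the difference was 1.00 percentage points in the other direction, with 9.85% in the mother and 8.59% in the father, against 7.05% to 9.56% in progeny. Without the 100 contigs most counted over all libraries, the share at 2000 bases or more was 36.8% in the mother and 34.8% in the father, against 33.6% to 37.8% in progeny, and the difference was 0.0897 (two-sided exact permutation, p = 0.922). These shares weigh contigs by their counts, whereas the calls above weigh each contig equally.

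A measure that weighs each contig equally, the length tilt, is the median log2 deviation from the progeny mean of contigs of 4000 bases or more, minus that of contigs under 500 bases. It was 0.68 in the mother and 0.41 in the father, against -0.16 to 0.39 in daughters and -0.36 to 0.18 in sons. The difference was 0.55. The measure restates the trend with length given above on the same values, and the progeny are near 0 because deviations are taken from their own mean, so no test is given. Daughter 2, at 0.39, came within 0.02 of the father. The progeny spread over a wide range of this measure, so it is not a property of the parents alone.

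Across the contigs called higher, the median log2 deviation of a tree from the progeny mean was 1.48 in the mother and 1.31 in the father, against -0.23 to 0.27 in the progeny. Across those called lower it was -0.95 in the mother and -0.96 in the father, against -0.17 to 0.10 in the progeny. These contigs were chosen on the same values, so this is a description of where single trees stood. Daughter 2 was nearest to the parents in both sets and daughter 1, the shallowest library, was farthest in both. No progeny tree came close to the parental values.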

How the data were processed

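Bud mRNA was measured in 19 usable libraries and bud small RNA in the 2 parents. Raw read counts, not normalized, were deposited by the authors for each assembled contig, beside contig lengths. BWA, R 3.0.1 and DESeq 1.14 are named in the submitters' processing notes. Libraries were made from purified mRNA with random primers, per the labels' protocols. How reads were assembled, counted and assigned to strands or to several matching contigs is not given in the sources used here, so near-identical contigs may share counts. The 2 flower small RNA libraries were not used here.

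Contigs were kept with at least 1.49 CPM, worth 10 counts at the median depth of 6707373, in at least 2 of the 19 libraries and 15 counts in all. They were fitted in edgeR 4.0.16 (limma 3.58.1, R 4.3.3) with library totals as depth, TMM factors, robust quasi-likelihood, and sex and generation as terms. A contig was called at a Benjamini-Hochberg adjusted p under 0.05 over all 89128 contigs. The SE is the log2 difference divided by the square root of F. Single parents were tested in a fit of 4 groups. Library measures used raw counts, thinned to 3527282 counts for detection. The parent label was permuted within each sex, in 90 arrangements, and p-values were adjusted over 5 measures. The length tilt used a pseudocount of 0.5 CPM. Limits from 0 counts cover counting error only. Figures and library measures were made in Python 3.11.15 with numpy 2.4.6, pandas 2.3.3, scipy 1.17.1 and matplotlib 3.10.9.

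Alternatives included RLE factors, library totals, limma-voom, DESeq2 1.42.0, other filters, no sex term and leaving out each library. In each direction 2 contigs are named: among contigs changed with both parents outside the progeny range, that of smallest p and that of highest CPM in the higher generation. Contigs described by length and level are the 10 most counted of a generation, the 10 of largest difference and those counted in a single generation. The members, classes and named contigs were chosen with earlier results of these data known. The small RNA-dense share, the length tilt, the 2 measures without small RNA-dense contigs, and the class scalings were added after seeing the data and carry no test.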

Additional observations from a re-analysis of the deposited data

Results flagged for a closer look

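Of 28 groups of progeny values examined, 4 held a tree far from the others of its sex, and chance gives such a flag in about 1 group in 20. All but 1 of the flags were in son 6. Its library total was 15314430 counts, against 5823321 to 8661160 in the other sons. At equal depth it had 172638 detected contigs, against 140502 to 153057 in the other sons, and so more than the father's 170228. Its log2 effective number without small RNA-dense contigs was 15.42, against 15.16 to 15.26 in the other sons. The fourth was daughter 3, where Contig299042DeNovoAssembly stood at 2982 CPM, against 1571 to 2229 CPM in the other daughters, so that its distance from the parents was largest there.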

How the results depend on the processing

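The 25060 contigs changed between parents and progeny became 10141 with at least 50 counts in 10 libraries, where 25483 contigs were tested, and 3166 against a fold of 2. Leaving out each library gave 9053 to 25881 contigs, the 2 lowest being those without a parent, and 24264 to 25881 when 1 progeny tree was left out; a lone parent is assumed there to vary like the progeny. The higher share of the calls was 66.1% with limma-voom, 58.5% with DESeq2 and 49.7% with the stricter filter. It was 56.8% with library totals that left out the 100 contigs most counted in the parents, which were still tested. The 4 named contigs kept their direction and call in all 30 settings tried, with the highest adjusted p at 0.0313. The correlation of the departures of mother and father, 0.551, became 0.513 with daughters and sons exchanged as controls and 0.718 with the stricter filter. Contigs counted in a single generation became 48 (parents) and 12 (progeny) with at least 3 counts in place of 10.

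Some differences reversed: the log2 effective number became 0.21 without small RNA-dense contigs, and the share on contigs of 2000 bases or more became 1.00 at 4000 bases and 0.0897 without the 100 top contigs; the cause was not tested. The gain in detected contigs was 27551 without thinning (exact permutation p = 0.167). Without a parent only 9 or 10 arrangements exist, so no library measure can pass there. Over all libraries left out, the differences ran from 3.07 to 4.59 percentage points for the 10 most counted contigs, -0.31 to -0.071 for the log2 effective number, 20633 to 26619 detected contigs, -3.33 to -0.65 for contigs of 2000 bases or more, 5.26 to 8.20 for small RNA-dense contigs, 0.47 to 0.62 for the length tilt and -755 to -0.111 for the contigs holding 50% of the counts. For contigs with both parents outside the progeny range, 20961 in all, leaving out a progeny tree gave 21118 to 22579. Leaving out a tree can only narrow that range, so this count could not fall. No paired analysis was possible because the replicate numbers only name trees and the groups compared share fewer than 2 numbers given by the labels. Of 8924 contigs under 1 CPM, 37 were called higher and 579 lower in the parents. With levels averaged on the log scale, the class held 12776 contigs, 633 higher and 809 lower. The split thus depends on how level is averaged, and the part that depth plays in it was not tested.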
